A study of Mus musculus with 6 samples.

Results

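The genes described here are 31 genes that mark or serve fat cells, chosen by name, of which 29 were measured among 22180 genes on arrays of mouse sciatic nerve. The genes Cfd and Adrb3 were not found with a single symbol in the platform annotation and were not analysed here. RNA of the whole sciatic nerve was taken from 3 samples of Srebf-1c KO mice and 3 of wild-type littermates, all aged 10 months. It was labelled with an Affymetrix whole-transcript kit, and each sample gave 1 array. Srebf-1c is the form of Srebf1 known as a transcription factor for genes of fatty acid synthesis. The labels give no other allele or treatment, the promoter or cell type of the deletion, or whether every sample is a separate mouse. The p-values therefore rest on a spread among samples that may be technical in part. The field for the source of the KO samples reads wild type. The groups follow the sample titles and the genotype field, and Srebf1 itself had a log2 intensity of 8.11, 8.06 and 8.04 on the KO arrays, against 9.53, 9.55 and 9.70 on the wild-type arrays. Its log2 fold change was -1.52 ± 0.11 (SE, limma adjusted p = 0.0497), and the groups did not overlap, but 13 of the alternative analyses took the adjusted p past 0.05.

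The sciatic nerve carries fat cells in the epineurium, the loose outer sheath that cushions its fascicles. White fat cells store triglyceride in 1 large droplet, release it as fatty acids when adrenergic or natriuretic signals activate lipolysis, and secrete hormones such as leptin and adiponectin. Brown fat cells burn fatty acids for heat through the uncoupling protein Ucp1. In whole-nerve RNA fewer fat cells and less RNA per fat cell cannot be told apart, nor can epineurial fat and fat that adhered at dissection.

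Promoter sequences are shown for 4 of the genes, Lep, Retn and Adipoq, which were high on the same arrays, and Ucp1, which was high on another. Each is the 250 bases before the transcription start in RefSeq, build GRCm38.p6, written on the strand of the gene, and RefSeq promoter entries were found for 19 of the 29 measured genes. Capitals mark the only match, among these 4, to the motifs searched on both strands.

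Lep, chr6:29059971-29060220, plus strand: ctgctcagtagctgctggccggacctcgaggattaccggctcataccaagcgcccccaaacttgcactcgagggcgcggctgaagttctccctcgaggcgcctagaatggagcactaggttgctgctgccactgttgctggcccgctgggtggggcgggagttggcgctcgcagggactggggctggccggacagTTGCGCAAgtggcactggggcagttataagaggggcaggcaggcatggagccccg

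Retn, chr8:3655520-3655769, plus strand: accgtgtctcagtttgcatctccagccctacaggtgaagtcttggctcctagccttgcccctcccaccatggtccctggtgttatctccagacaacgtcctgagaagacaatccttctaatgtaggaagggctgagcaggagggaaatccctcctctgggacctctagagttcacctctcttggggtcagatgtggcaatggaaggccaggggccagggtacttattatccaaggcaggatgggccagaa

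Adipoq, chr16:23146286-23146535, plus strand: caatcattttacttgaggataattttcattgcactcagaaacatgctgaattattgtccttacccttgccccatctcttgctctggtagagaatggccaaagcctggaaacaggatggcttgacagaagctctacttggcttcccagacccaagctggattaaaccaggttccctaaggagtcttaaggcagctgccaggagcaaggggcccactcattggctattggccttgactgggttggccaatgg

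Ucp1, chr8:83290098-83290347, plus strand: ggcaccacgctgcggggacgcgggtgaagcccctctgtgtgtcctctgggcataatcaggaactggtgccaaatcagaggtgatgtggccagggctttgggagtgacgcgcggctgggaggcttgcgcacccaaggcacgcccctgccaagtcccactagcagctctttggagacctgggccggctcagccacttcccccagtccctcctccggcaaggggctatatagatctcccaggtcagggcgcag

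The capitals in the Lep promoter are the palindrome TTGCGCAA, a binding motif of the C/EBP factors, at bases -55 to -48 before the start. This motif was present in 1 of the 19 genes with an entry and in 0.185% of the 27025 genes of the RefSeq table. The direct repeat AGGTCANAGGTCA, a motif of PPAR and RXR receptors, was present in 0 of 19 genes and in 0.0407% of all genes. The sterol regulatory motif TCACCCCAC was present in 0 of 19 and in 0.555%, the E-box CACGTG in 3 of 19 (Ffar2, Lipe and Mgll) and in 6.86%, and TATAAA in 2 of 19 (Cebpa and Rbp4) and in 14.3%. No motif match overlapped another in the 19 genes, and the letters were chosen after earlier searches of these windows. A match is a run of letters in this window, and none bears on whether a factor bound there.

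Most of the 29 genes differed widely from array to array, and in none of the 29 did the KO and wild-type values separate. Of the 29 genes, 22 had their highest values on KO replicate 2 and wild-type replicate 3, an order found in 9.54% of all genes. These 2 arrays, called the fat-rich arrays for short, were picked out after the values were seen, so the count is a description. In 17 of the 29 genes wild-type replicate 2 came next after the fat-rich arrays, against 4.24% of all genes. Counted only within genes highest on the fat-rich arrays, this was 17 of 22, against 940 of 2117 among all genes. The mean over the 29 genes of the log2 intensity minus each gene's mean over the 6 arrays was -0.62, 0.88 and -0.73 on the KO arrays, against -0.54, -0.14 and 1.16 on the wild-type arrays. Each genotype thus held 1 array with high levels of fat genes, and the groups overlapped.

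**Figure D1:**
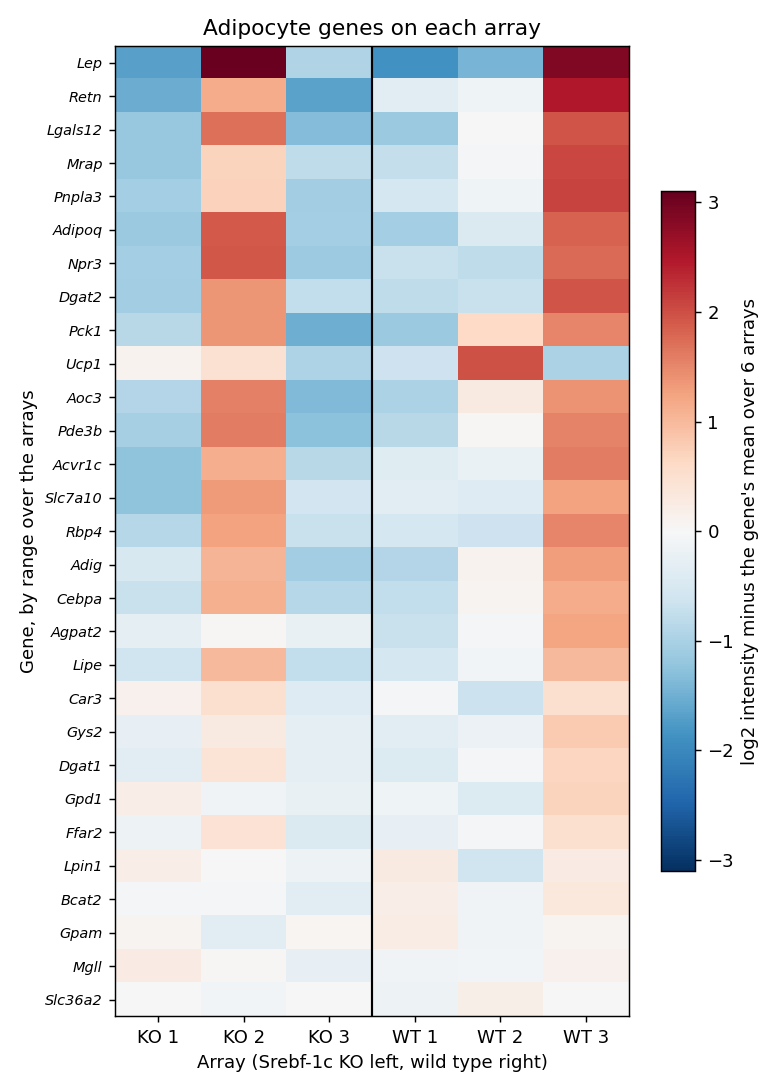
Each row is 1 of the 29 adipocyte genes and each column 1 array, with the 3 Srebf-1c KO arrays on the left, and colour gives how far the log2 intensity lies above or below that gene's average. KO replicate 2 and wild-type replicate 3 are high in 22 of the 29 rows, while Ucp1 is highest on wild-type replicate 2 and rows near the bottom hardly vary.

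Most of these genes were among the most variable on the arrays. The range from the lowest to the highest array had a median of 2.40 log2 units over the 29 genes, against 0.54 over all genes. It was at least 1 log2 unit in 23 of the 29 and in 13.5% of all genes, and at least 2 log2 units in 17 of the 29 and in 1.76% of all genes. Of the 100 genes with the widest range among the 22180, 13 were among these 29. Lep stood in rank 2 and Retn in rank 7.

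**Figure D2:**
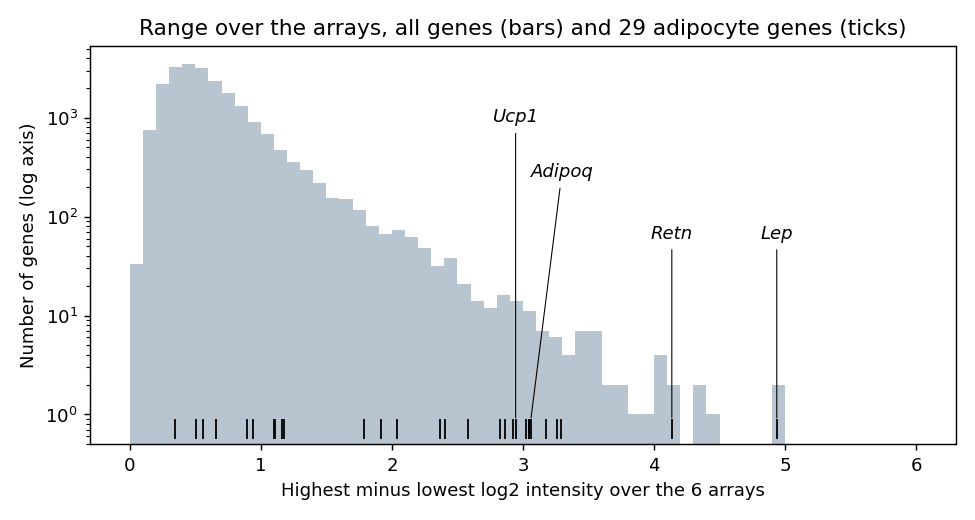
Bars count all genes by the difference between their highest and lowest log2 intensity over the 6 arrays, on a log axis, and ticks mark the 29 adipocyte genes. Most ticks lie beyond 1 log2 unit, with Lep at 4.94 and Retn at 4.14.

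Among the secreted proteins, Lep encodes leptin, the hormone that reports fat stores to the brain. Its log2 intensity was 7.22, 11.97 and 7.97 on the KO arrays, against 7.04, 7.47 and 11.78 on the wild-type arrays. One array of each genotype lay far above the other two, with a 30.6-fold span between the lowest and the highest array. The log2 fold change, KO minus wild type, was 0.29 ± 1.58 (SE), and the limma adjusted p was 0.990.

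Adipoq encodes adiponectin, an insulin-sensitising hormone that defines mature fat cells. It measured 6.99, 10.05 and 7.09 on the KO arrays, against 7.09, 7.71 and 9.98 on the wild-type arrays. The high array of each genotype reached nearly the same level, wild-type replicate 2 lay above the other low arrays, and the log2 fold change was -0.22 ± 1.00 (SE).

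Retn encodes resistin, a hormone that in mice is made by fat cells. It measured 8.01, 10.70 and 7.90 on the KO arrays, against 9.22, 9.43 and 12.04 on the wild-type arrays. The KO values lay lower than the wild-type values within the high and within the low arrays, but the groups overlapped because KO replicate 2 exceeded wild-type replicates 1 and 2. That split of arrays was made after the values were seen, and the share of all genes with this order was not counted. The log2 fold change of -1.36 ± 0.97 (SE) was the lowest of the 29 genes and did not pass (limma adjusted p = 0.892). Rbp4, the retinol carrier of plasma, ranged from 7.57 to 9.70 in KO and from 7.80 to 9.97 in wild type.

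**Figure D3:**
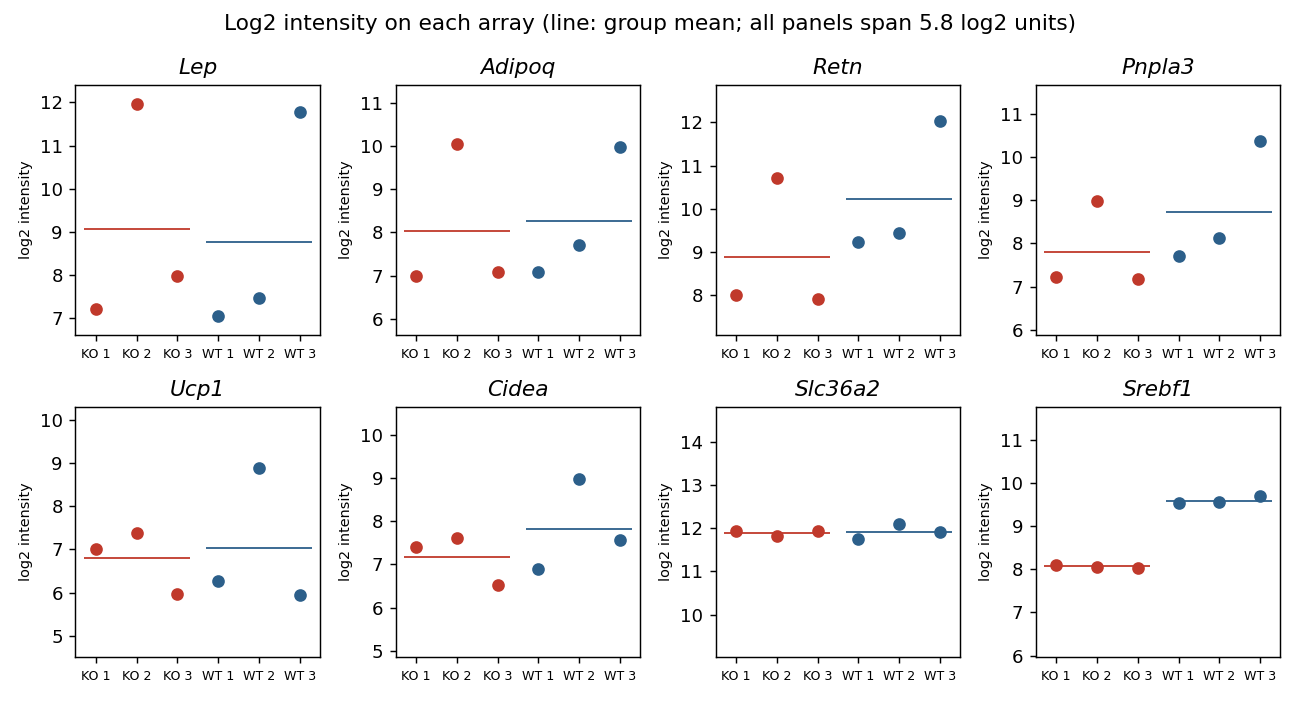
Points are the log2 intensity of 8 genes on each array, Srebf-1c KO in red on the left and wild type in blue on the right, with a line at each group mean and an equal span of the vertical axis in every panel. Lep, Adipoq, Retn and Pnpla3 are highest on KO replicate 2 and wild-type replicate 3, Ucp1 and Cidea on wild-type replicate 2, Slc36a2 hardly varies, and Srebf1 is the one of the 8 that separates the genotypes.

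Genes of fat cell identity and structure followed the same arrays. Cebpa, a transcription factor of fat cell differentiation, measured 8.07, 9.85 and 7.88 on the KO arrays, against 7.99, 8.84 and 9.92 on the wild-type arrays. Lgals12, a galectin of lipid droplets, measured 7.97, 10.86 and 7.80 in KO, against 7.99, 9.15 and 11.10 in wild type. Aoc3, an amine oxidase of the fat cell surface, measured 9.45, 11.92 and 9.00 in KO, against 9.37, 10.64 and 11.76 in wild type. In all 3 genes wild-type replicate 2 stood between the high and the low arrays. Adig, a small adipogenic membrane protein, spanned 6.19 to 8.31 in KO and 6.36 to 8.56 in wild type. Car3, the carbonic anhydrase abundant in fat and also in slow muscle, behaved less evenly, at 13.50, 13.86 and 12.98 in KO, against 13.30, 12.70 and 13.87 in wild type. Its second, dimmer probe set was highest on KO replicate 1, at 9.86, 9.44 and 9.10 in KO, against 8.93, 8.25 and 9.33 in wild type. The log2 fold change of Car3 was 0.16, and 0.39 with its probe sets averaged.

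Of the 8 enzymes of glycerol and triglyceride synthesis, 5 had their highest values on the fat-rich arrays, against 9.54% of all genes. Dgat2, which adds the last acyl chain, measured 9.19, 11.64 and 9.52 in KO, against 9.48, 9.58 and 12.23 in wild type. Pck1, which makes glycerol 3-phosphate precursors from pyruvate in fat, measured 8.98, 11.21 and 8.32 in KO, against 8.68, 10.45 and 11.34 in wild type. Both were highest on the arrays with high leptin. Pnpla3, a lipid droplet protein encoded by a known SREBP-1c target, measured 7.22, 8.98 and 7.19 in KO, against 7.71, 8.13 and 10.36 in wild type, with a log2 fold change of -0.94 ± 0.76 (SE). Agpat2, the acyltransferase whose loss causes lipodystrophy, measured 9.72, 10.07 and 9.80 in KO, against 9.34, 9.99 and 11.26 in wild type. Its range within KO was small, and wild-type replicate 3 alone stood out. Dgat1, the other enzyme of the final step, spanned 9.40 to 10.17 in KO and 9.31 to 10.42 in wild type.

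Gpam, Lpin1 and Gpd1 had other orders of arrays. Gpam, the mitochondrial acyltransferase of the first step, was lowest on KO replicate 2, at 10.28, 9.86 and 10.26 in KO, against 10.43, 10.09 and 10.29 in wild type. Lpin1, a phosphatidate phosphatase that muscle also uses, measured 11.31, 11.12 and 10.94 in KO, against 11.37, 10.48 and 11.36 in wild type, lowest on wild-type replicate 2. Gpd1, which makes glycerol 3-phosphate, measured 10.63, 10.30 and 10.19 in KO, against 10.28, 10.01 and 11.11 in wild type. The set leaves out 12 other measured genes of this pathway, such as Agpat1 and Lpin2. Of these 12, 3 had their highest values on KO replicate 2 and wild-type replicate 3, against 9.54% of all genes. Mogat1, which acylates monoglycerides, was the one with the smallest unadjusted p (log2 fold change -0.41 ± 0.25, SE), followed by Gpd1l at -0.20 ± 0.14 and Lpin2 at -0.18 ± 0.20, and none passed in limma (smallest adjusted p = 0.884).

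Among genes of lipolysis and its control, Lipe, the hormone-sensitive lipase, measured 7.99, 9.62 and 7.84 in KO, against 8.07, 8.53 and 9.62 in wild type. Pde3b, the phosphodiesterase through which insulin restrains lipolysis, measured 7.51, 10.13 and 7.26 in KO, against 7.67, 8.57 and 10.07 in wild type. Npr3, the clearance receptor for natriuretic peptides, measured 8.49, 11.47 and 8.42 in KO, against 8.87, 8.76 and 11.30 in wild type. KO replicate 2 exceeded wild-type replicate 3 by 0.0079 log2 units for Lipe, 0.060 for Pde3b and 0.17 for Npr3. Mrap, an accessory protein of the corticotropin receptor, measured 6.50, 8.36 and 6.90 in KO, against 6.93, 7.62 and 9.76 in wild type. Acvr1c, the activin receptor ALK7 that restrains lipolysis, measured 6.10, 8.47 and 6.50 in KO, against 6.98, 7.15 and 8.93 in wild type. For both genes KO replicates 1 and 3 lay below every wild-type array and KO replicate 2 below wild-type replicate 3, while the groups as a whole overlapped. For Mrap the margin was small, with KO replicate 3 at 6.904 and wild-type replicate 1 at 6.929. This order was picked out after the values were seen, and its share over all genes was not counted. Ffar2, a receptor for short-chain fatty acids, was dim and spanned 5.84 to 6.74 in KO and 6.04 to 6.78 in wild type. Mgll, the monoglyceride lipase found in many tissues, hardly varied, at 10.49, 10.27 and 9.99 in KO, against 10.12, 10.16 and 10.37 in wild type.

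Another 15 measured genes of lipolysis control are not in the set. Of these, 10 had their highest values on the fat-rich pair of arrays, against 9.54% of all genes. Irs1, an insulin receptor substrate, stood at -0.29 ± 0.15 (SE) on the log2 scale, Hcar1, the lactate receptor that restrains lipolysis, at -0.66 ± 0.39 and Adcy5, an adenylyl cyclase, at -0.75 ± 0.44. None of the 15 passed in limma (smallest adjusted p = 0.867).

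The brown fat gene Ucp1 was high on a different array from the white fat genes. Its log2 intensity was 7.01, 7.39 and 5.96 in KO, against 6.27, 8.88 and 5.94 in wild type, so that wild-type replicate 2 stood highest. Of the arrays rich in leptin, KO replicate 2 came next for Ucp1 and wild-type replicate 3 stood lowest. Cidea, a lipid droplet protein abundant in brown fat, was also highest on wild-type replicate 2, at 7.40, 7.61 and 6.53 in KO, against 6.90, 8.98 and 7.57 in wild type. Elovl3, a fatty acid elongase induced in brown fat by cold, had its highest value there too, at 5.84, 5.66 and 5.33 in KO, against 5.75, 6.25 and 5.75 in wild type. Across the 17 measured brown fat genes, 5 were highest on that array (Ucp1, Slc36a2, Cidea, Elovl3 and Prdm16), against 23.8% of all genes, a share near the background. Ucp1 and Elovl3 are in the dimmer 50% of all genes by mean intensity, as are Acvr1c, Adig, Ffar2, Gys2 and Mogat1. Other brown fat markers had other orders. Dio2, the deiodinase that activates thyroid hormone, measured 6.73, 6.96 and 7.22 in KO, against 7.21, 6.69 and 6.30 in wild type, and Zic1 was highest on wild-type replicate 1. Cox7a1 and Cox8b, respiratory subunits of brown fat that skeletal muscle also expresses, were lowest on wild-type replicate 2, at 9.32 and 9.73, the array with the lowest muscle gene levels.

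No brown fat gene passed in limma between the genotypes (smallest adjusted p = 0.887, and 0 at an unadjusted p under 0.05, against 5.83% of all genes). Ucp1 had a log2 fold change of -0.24 ± 0.77 (SE), Cidea of -0.64 ± 0.53, Elovl3 of -0.30 ± 0.20 and Pank1, a pantothenate kinase, of 0.26 ± 0.19. The direction for Ucp1 rested on single arrays, since it turned to 0.17 once KO replicate 3 was dropped and to 0.69 once wild-type replicate 2 was dropped.

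The surface transporters used to tell fat types apart gave a mixed picture. Slc7a10, the neutral amino acid transporter that marks white fat cells, measured 7.24, 9.82 and 7.91 in KO, against 8.18, 8.09 and 9.74 in wild type, highest on the same 2 arrays as leptin. Slc36a2, a proton-coupled amino acid transporter used as a brown and beige fat marker, measured 11.93, 11.82 and 11.93 in KO, against 11.75, 12.09 and 11.92 in wild type. Its range of 0.34 log2 units was the smallest of the 29 genes, with its highest value on wild-type replicate 2. Among other genes that lean to white fat, Nnat, the membrane proteolipid neuronatin, was highest on KO replicate 2 and wild-type replicate 3, at 10.56 and 10.12, while Sncg, a synuclein that nerve also makes, spanned 12.29 to 12.61 in KO and 12.59 to 12.61 in wild type. Their log2 fold changes were -0.23 ± 0.71 (SE) for Nnat (0.32 with its probe sets averaged), -0.10 ± 0.13 for Sncg and 0.029 ± 0.26 for Agt, the angiotensinogen gene.

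Bcat2, the mitochondrial aminotransferase of branched-chain amino acids, had the smallest unadjusted p of the 29 genes. It measured 9.05, 9.05 and 8.75 in KO, against 9.28, 8.99 and 9.40 in wild type, with a log2 fold change of -0.27 ± 0.16 (SE, limma adjusted p = 0.872). Wild-type replicate 2 fell between the KO values, so the groups overlapped. Gys2, the liver form of glycogen synthase that fat also uses, was dim and spanned 6.19 to 6.78 in KO and 6.14 to 7.31 in wild type.

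Between the genotypes, 0 of the 29 genes passed an adjusted p of 0.05 in limma, against 0.00451% of all genes, which is Srebf1 alone. At an unadjusted p under 0.05 there were also 0 of 29, against 5.83% of all genes, and 0 of 29 met the study's criterion of that p with a change of at least 1.5-fold, against 1.19%. The mean was lower in KO for 25 of the 29, against 56.9% of all genes, and the median log2 fold change was -0.25, against -0.032 over all genes. Since 22 of the genes varied together over the same arrays, the 25 are not separate pieces of evidence. In 0 of the 29 genes were the 3 KO values all on one side of the 3 wild-type values, against 12.3% of all genes. For the 22 genes that followed the fat-rich arrays the standard error ran from 0.28 to 1.58 log2 units, and differences of that size were not detectable with 3 arrays per genotype.

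The direction of the set depended on single arrays. Without wild-type replicate 3 the mean was lower in KO for 9 of the 29 genes, against 56.5% of all genes, with a median log2 fold change of 0.18. Without KO replicate 3 it was lower for 13, against 57.4% of all genes, with a median of 0.0019. Without KO replicate 2 it was lower for 25, against 55.9% of all genes, with a median of -0.94. Retn then met the study's criterion (-2.27, limma adjusted p = 0.712), against 2.49% of all genes, and 0 members passed the adjusted p, against 0.00451%. Without wild-type replicate 1 the median was -0.60, and with array weights estimated by limma it was -0.75, with a lower mean in KO for all 29, against 55.9% of all genes.

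The genotypes were also compared with a fat index as a covariate. It is a level of fat gene RNA, so the fit does not hold the amount of fat equal. The index was the mean centred log2 intensity of Plin1, Plin4, Cidec, Fabp4, Pparg and Trarg1, which code for lipid droplet proteins, a fatty acid carrier, the master regulator of fat cells and a regulator of glucose transport. None of them is among the 29 genes, and they were chosen after the values were seen. The index was -0.78, 1.43 and -0.98 on the KO arrays, against -0.86, -0.24 and 1.44 on the wild-type arrays. With it in the fit, which left 3 residual degrees of freedom, the standard error of Adipoq fell to 0.14, against 1.00 without it, and its log2 fold change was 0.069. All 6 index genes were themselves highest on the fat-rich arrays. A smaller standard error for genes that followed those arrays was therefore built into the choice of the index.

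With this covariate 2 of the 29 genes met the study's criterion, against 1.38% of all genes, and 0 passed the adjusted p, as did 0.0% of all genes. Retn stood at -1.08 ± 0.19 (SE, unadjusted p = 0.0009, limma adjusted p = 0.790) and Pnpla3 at -0.73 ± 0.22 (unadjusted p = 0.0147, limma adjusted p = 0.790). Both genes followed the fat-rich arrays, so the smaller standard error built into the index bears on this count and these p-values. Only 9.54% of all genes had that order, so the share over all genes is not a like comparison. Mrap stood at -0.64 ± 0.27, Acvr1c at -0.46 ± 0.20 and Lep at 0.74 ± 0.37. The log2 fold change was below 0 for 23 of the 29, against 57.0% of all genes. With no covariate and single arrays left out, the log2 fold change ran from -2.27 to -0.45 for Retn and -1.53 to -0.12 for Pnpla3. It ran from -1.44 to -0.021 for Mrap and -1.39 to -0.041 for Acvr1c. Each of these changes was smallest without wild-type replicate 3. With a broader index of 29 other adipocyte genes, which includes enzymes of fatty acid synthesis, the genes that met the criterion were Retn, at -0.69 ± 0.17 (adjusted p = 0.793), and Lep, at 1.37 ± 0.39 (adjusted p = 0.793), against 1.51% of all genes, and Pnpla3 stood at -0.42 ± 0.19. In that fit 10 of the 29 lay below 0, against 57.1% of all genes. Of the genes in the broader index, 19 were highest on the fat-rich arrays, so the same limit holds for its count. With both fat-rich arrays left out, Retn (-1.37), Pnpla3 (-0.71) and Acvr1c (-0.77) met the criterion, against 3.69% of all genes. In that fit 21 of the 29 lay below 0, against 56.6% of all genes, and 0 passed the limma adjusted p.

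**Figure D4:**
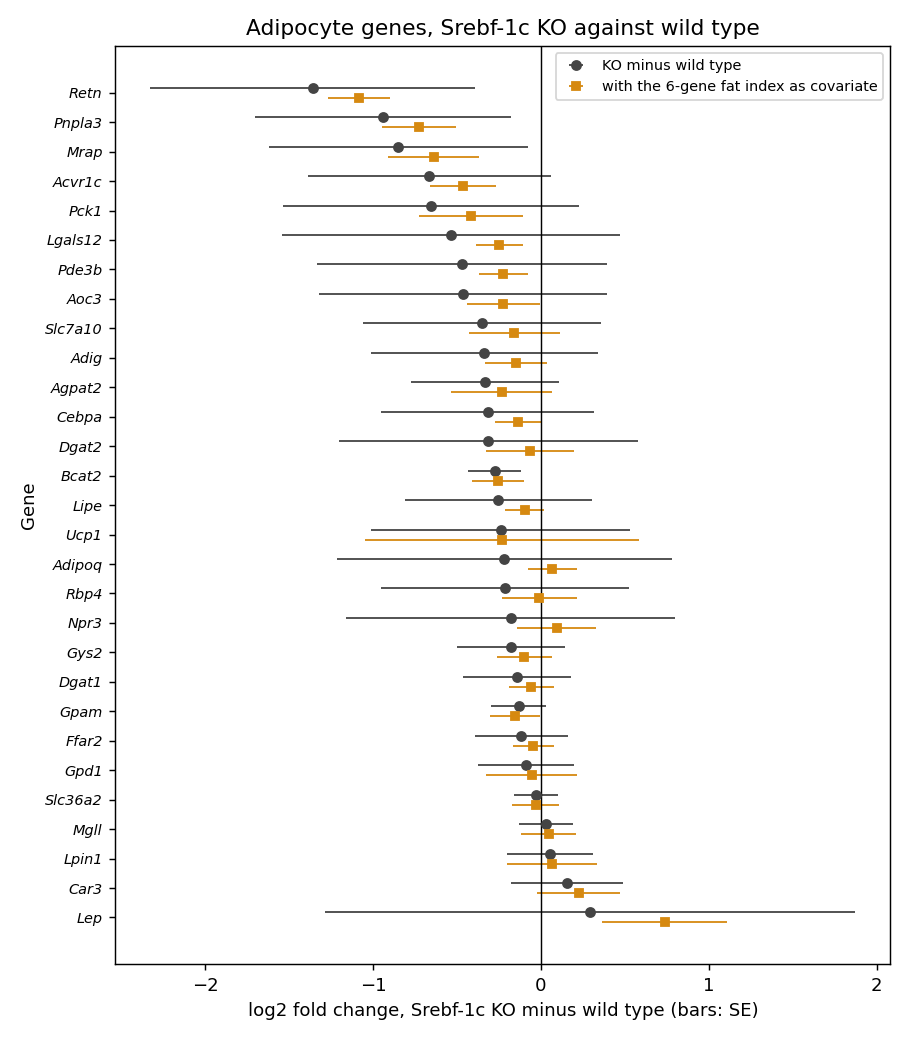
Circles are the log2 fold changes of the 29 adipocyte genes, Srebf-1c KO minus wild type, and squares the same with the 6-gene fat index as a covariate, each with its standard error. Bars shrink with the covariate for genes that followed the fat-rich arrays, on which the index genes were highest too. Retn and Pnpla3 stay lowest in both.

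Of 29 other fat cell genes measured outside the set, 19 had their highest values on the fat-rich pair of arrays, against 9.54% of all genes. By unadjusted p the first were Aacs, the cytosolic acetoacetyl-CoA synthetase, at -0.62 ± 0.18 (SE), Acly, which makes cytosolic acetyl-CoA, at -0.63 ± 0.26, and Thrsp, a nuclear protein of lipogenic tissue, at -1.41 ± 0.63. Aacs and Acly met the study's criterion on the lower side, as did 0.555% of all genes, and none of the 29 passed in limma after adjustment (smallest adjusted p = 0.850). Aacs measured 8.68, 8.87 and 8.54 in KO, against 9.03, 9.27 and 9.65 in wild type. Acly measured 9.94, 10.16 and 9.85 in KO, against 10.18, 10.46 and 11.19 in wild type. In both genes every KO value lay below every wild-type value, by a narrow margin for Acly, and they were the only 2 of the 29 other genes whose groups did not overlap, against 12.3% of all genes. Thrsp measured 6.54, 8.06 and 6.71 in KO, against 7.69, 7.99 and 9.85 in wild type, and its groups overlapped. With the 6-gene index as a covariate 8 of these 29 genes had an unadjusted p under 0.05, all lower in KO, against 6.3% of all genes, and none passed the limma adjusted p (0.790 for each of the 8). They were Thrsp at -1.24 ± 0.21 (SE), Fasn, the fatty acid synthase, at -0.69 ± 0.18, Adcy5, Aacs, Ptger3, Acly, Hcar1 and Plin1, and Plin1 is itself in the index. All 6 genes of the index are among these 29, and their fold changes in this fit cancel on average by construction. The count of 8 is therefore not free of the index.

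The genes whose profile over the 6 arrays was most like the mean of the 29 were Ankef1, Orm1, Acp5, Trarg1, C7, Flacc1, Sik2, Plin1, Glb1l2 and A530020G20Rik. Their Pearson correlation with that mean ran from 0.990 to 0.997 over 6 arrays, a description that rests on the high values of the same 2 arrays. Within the set the lowest correlations with the mean were those of Gpam at -0.49, Slc36a2 at -0.061, Ucp1 at 0.0012 and Lpin1 at 0.17, and the highest that of Lgals12 at 0.99.

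Markers of other cell types moved with the fat genes in part. Macrophage markers had a mean centred log2 intensity of -0.48, 0.54 and -0.046 in KO, against -0.35, -0.21 and 0.55 in wild type. Of the 10 markers 9 were highest on the fat-rich pair of arrays, against 9.54% of all genes. Markers of fat progenitors and fibroblasts stood at -0.35, 0.42 and -0.069 in KO, against -0.28, -0.033 and 0.31 in wild type, with 5 of 12 highest on that pair. Endothelial markers stood at -0.051, 0.17 and -0.47 in KO, against -0.11, 0.11 and 0.35 in wild type, with 4 of 10 highest on that pair. Skeletal muscle markers stood at 0.34, -0.36 and 0.27 in KO, against 0.81, -0.86 and -0.20 in wild type. Of these markers 0 of 16 were highest on the pair, against 9.54% of all genes. The 9 myelin and Schwann cell markers varied less, from -0.035 to 0.093 in KO and from -0.20 to 0.18 in wild type. The part of these cell types in the differences above was not tested.

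**Figure D5:**
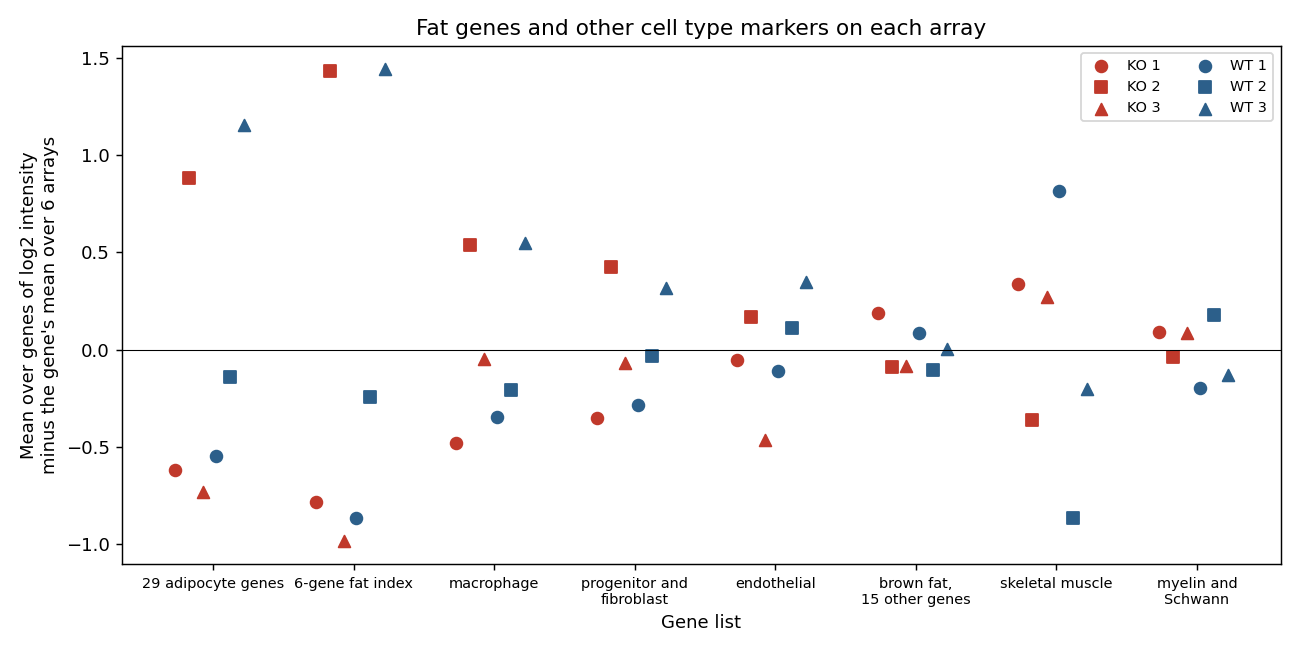
Points are list means of centred log2 intensity (each gene set to an average of 0 over the 6 arrays), for Srebf-1c KO arrays in red and wild-type arrays in blue, with a marker shape for each replicate number. The 29 adipocyte genes and the 6-gene fat index stand highest on KO replicate 2 and wild-type replicate 3. So do the macrophage, the progenitor and fibroblast, and, by a smaller margin, the endothelial lists. The means of the 15 other brown fat genes and of the myelin list stay near 0. Single brown fat genes with unlike orders of arrays cancel in that mean, and 6 of the 15 had a range of at least 1 log2 unit, against 13.5% of all genes.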

How the data were processed

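RNA of whole sciatic nerve was measured on 3 Srebf-1c KO and 3 wild-type arrays. The deposited values are probe set intensities. Per the series' design text, the authors made them with the Robust Multichip Average (RMA) in TAC and Partek, which corrects background, normalizes across arrays and combines probes. No software version is given in the labels. Build mm8 stands in the submitters' processing notes. The linear scale was read from the values, whose median per array was 115.5 to 122.6.

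Log2 was taken with no pseudocount. Of 41077 probe sets, 23521 with exactly 1 symbol gave 22180 genes, each represented by its brightest probe set. Among the 29 genes, Car3 and Gpd1 had a second, dimmer probe set. The fit was limma 3.58.1 in R 4.3.3 (lmFit, eBayes, two-sided, Benjamini-Hochberg over 22180 genes), checked on simulated data. The simulated noise was independent for each gene and array, so genes that vary together over arrays were not covered by that check. The number of arrays limits precision. Alternatives changed the test, array weights, scaling, the dim-gene filter, the probe set rule, the pseudocount, covariates, the replicate block and the arrays included.

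Members, lists, motifs and tests were chosen with earlier results of these data known. The genes named are the 29, the 3 of each fat-related list with the smallest unadjusted p, Srebf1, and the 10 most like the set. Genes named beyond these (Dio2, Zic1, Prdm16, Cox7a1, Cox8b, Agpat1, Ptger3, Fasn, and Plin4, Cidec, Fabp4 and Pparg of the 6-gene index) were chosen after their values were seen. Promoters came from RefSeq, GRCm38.p6. Plots used matplotlib 3.10.9.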

Additional observations from a re-analysis of the deposited data

How the results depend on the processing

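No alternative gave a gene of the set an adjusted p under 0.05, and a limit of 0.10 gave 0 as well. The sample titles number the replicates without saying whether the numbers pair the samples. The deviations of same-numbered arrays from their group means correlated at 0.12, 0.012 and -0.23. With 3 arrays per genotype these values cannot decide whether the samples were paired, and the main fit treated them as unpaired. With a replicate block 0 of 29 genes met the study's criterion, 25 had a lower mean in KO and Srebf1 stood at -1.52 but no longer passed the adjusted p. Srebf1 also missed it with the methods' ANOVA, arrays brought to 1 median, each covariate, both fat-rich arrays left out and each single array left out. The count meeting the study's criterion was 2 with the broader fat index as covariate, 2 with the 6-gene index and 3 with both fat-rich arrays left out, and 0 to 1 with single arrays left out. The broader index gave 10 genes with a lower mean and a median log2 fold change of 0.071. Array weights gave 29 and a median of -0.75. Leaving out single arrays gave 9 to 27 and a median of -0.94 to 0.18. Over all genes the criterion count of 265 became 138 with the methods' ANOVA, 89 without the dimmest 50% of genes, 139 with a pseudocount of 16, 435 without wild-type replicate 1, 488 without wild-type replicate 3, 552 without KO replicate 2 and 819 without both fat-rich arrays. The 6-gene index and the omission of both fat-rich arrays were chosen after seeing the data. Of 848 gene values under the alternatives, 84 changed sign, and the cause was not tested. With the broader fat index the log2 fold change turned to 0.12 for Adig, 0.47 for Adipoq, 0.11 for Aoc3, 0.11 for Cebpa, 0.067 for Dgat1, 0.29 for Dgat2, 0.060 for Ffar2, 0.014 for Gpd1, 0.023 for Gys2, 0.16 for Lgals12, 0.13 for Lipe, 0.48 for Npr3, 0.12 for Pde3b, 0.28 for Rbp4, 0.11 for Slc7a10 and 0.19 for Nnat. With the 6-gene index it turned to 0.069 for Adipoq and 0.094 for Npr3. Without both fat-rich arrays it turned to 0.097 for Agpat2, 0.012 for Gpam, 0.27 for Gpd1 and 0.0081 for Slc36a2. With array weights it turned to -0.074 for Car3, -0.75 for Lep, -0.018 for Lpin1, -0.051 for Mgll and -0.090 for Agt. With arrays at 1 median it turned to -0.015 for Mgll and -0.017 for Agt. With a muscle index it turned to -0.014 for Lpin1 and -0.019 for Agt. With probe sets averaged it turned to 0.32 for Nnat. With single arrays left out it ran from -0.95 to 0.23 for Adig, -1.22 to 0.64 for Adipoq, -0.76 to 0.20 for Agpat2, -1.36 to 0.12 for Aoc3, -0.14 to 0.45 for Car3, -0.94 to 0.19 for Cebpa, -0.39 to 0.16 for Dgat1, -1.08 to 0.59 for Dgat2, -0.36 to 0.097 for Ffar2, -0.22 to 0.0026 for Gpam, -0.32 to 0.23 for Gpd1, -0.40 to 0.18 for Gys2, -1.17 to 1.80 for Lep, -1.52 to 0.31 for Lgals12, -0.82 to 0.19 for Lipe, -0.24 to 0.21 for Lpin1, -0.090 to 0.16 for Mgll, -1.19 to 0.65 for Npr3, -1.38 to 0.18 for Pde3b, -0.89 to 0.49 for Rbp4, -0.11 to 0.058 for Slc36a2, -1.10 to 0.19 for Slc7a10, -0.78 to 0.69 for Ucp1, -1.01 to 0.25 for Nnat and -0.26 to 0.22 for Agt. The number of arrays and the spread between them limit what can be detected.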
